A study of Bos taurus with 6 samples.

Results

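The zinc finger genes with a ZNF symbol on bovine chromosomes 7 and 18 were examined in MIRA-Seq data. They were chosen by the gene label that the deposited files print beside each 3 kb window, as every label on these chromosomes that begins with ZNF and digits. This gave 1054 windows of 902984 in the whole series, which formed 122 genes of 120 symbols, 24 on chromosome 7 and 98 on chromosome 18. The 2735 other labelled genes of both chromosomes served for comparison. Dermal fibroblast cultures had been established from 3 Holstein heifers at 5 months of age and again from the same animals at 16 months. All 6 cultures were at passage 5 and untreated, and each gave 1 library (n = 3 per age), so that an animal at an age is represented by a single culture. In MIRA, proteins with methyl-binding domains pull down sonicated DNA, and the reads of a window rise with its methylation as well as with its density of CpG sites. DNA was measured, so the cell type label could not be set against expression markers.

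ZNF genes encode proteins that bind DNA through arrays of C2H2 zinc fingers, and in most of them a long final exon encodes the whole array. Many also carry a KRAB domain, which recruits TRIM28 and with it the histone methyltransferase SETDB1, HP1 proteins and DNA methylation to the bound sites, often transposable elements. In human cells the 3' coding ends of such genes themselves carry repressive chromatin, while the CpG-rich starts of most genes are poor in methylation. Each gene was therefore read on its strand as the first window, which holds the start, the last window, which holds the 3' end, and the body between them.

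Counts summed over windows ranged from 19.9 to 43.6 M reads per library, and the ZNF windows held 0.0794% to 0.118% of them. Levels are counts per M (CPM) scaled by TMM factors, on which 3 reads came to 0.0716 to 0.152 CPM depending on the library, a floor that covers counting error only. The TMM factors were 0.718 and 0.850 in the libraries of animal 3 and 1.03 to 1.22 in the other libraries. Unlabelled windows of chromosomes 7 and 18 had a median of 0.0460 to 0.305 CPM, highest in the 16-month library of animal 3. A ZNF window held a median of 8 reads per library. Only 224 of 1054 ZNF windows (21.3%) passed a filter of 1 CPM in at least 3 libraries, against 26.7% of 22957 windows of the other genes. For this filter, here and below, CPM was taken on the library's total over windows without TMM factors. Of the 122 ZNF genes, 67 (54.9%) had a window that passed it, against 59.8% of the other genes.

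The median ZNF gene held less signal than the median other gene of the same chromosomes, by little at the start and by more in the body and at the 3' end. In the first window, the ZNF median was 0.285 ± 0.140 CPM (SD over 6 libraries) against 0.359 ± 0.153. In the body it was 0.362 ± 0.175 CPM per window for 101 ZNF genes of at least 3 windows, against 0.914 ± 0.257 for 1680 other genes. In the last window it was 0.395 ± 0.179 CPM for 120 ZNF genes of at least 2 windows, against 0.790 ± 0.287 for 2237 other genes.

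The difference held the same sign in each library. On the log2(CPM + 0.5) scale, ZNF genes minus other genes came to -0.13 ± 0.037 in first windows, -0.72 ± 0.12 in bodies and -0.52 ± 0.19 in last windows, lower in 6 of 6 libraries at each position. Since the genes were chosen with results of these data known, these differences are descriptions without a test. Their size depended on the comparison genes. Against the labelled genes of all other chromosomes, a comparison added after the data were seen, the differences were 0.033, -0.13 and -0.022 in first windows, bodies and last windows, and the sign at the start turned. The other genes of chromosomes 7 and 18 thus stood above both the ZNF genes and the genes of the rest of the genome, where the median last window had 0.414 CPM. The 178 ZNF genes of other chromosomes, 171 of them with at least 2 windows, had a median of 0.400 CPM in the last window.

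**Figure D1:**
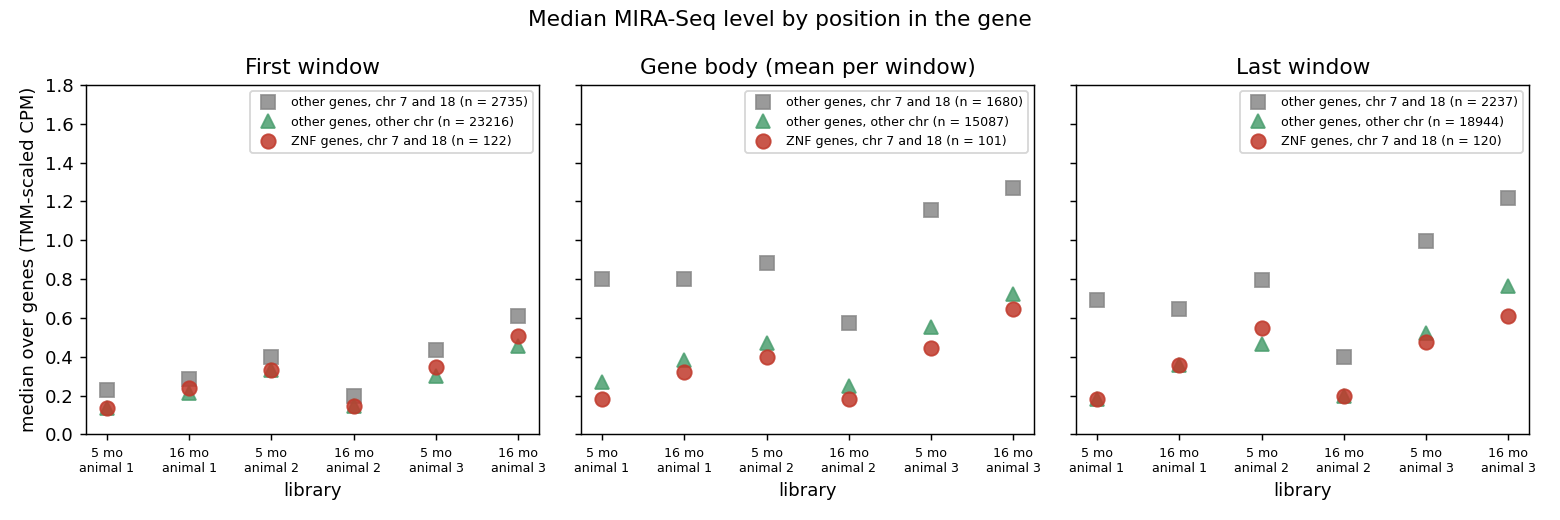
Median over genes of the level (TMM-scaled CPM) in each of 6 libraries, for first windows, gene bodies and last windows; circles are the ZNF genes of chromosomes 7 and 18, squares the other labelled genes of these chromosomes and triangles the other genes of all other chromosomes. In bodies and last windows the squares lie above the circles in every library, while circles and triangles lie close together.

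The medians hid a wide spread among the ZNF genes. Mean last-window levels ran from 0.00766 to 19.3 CPM. The low end lies under the 0.0716 to 0.152 CPM that 3 reads came to, so the width of the spread is not resolved there. Of 120 genes, 63 were under 0.5 CPM, 41 (34.2%) at 1 CPM or more and 17 at 5 CPM or more. Of the other genes of both chromosomes, 46.3% were at 1 CPM or more in the last window. First windows were at 1 CPM or more in 20 of 122 ZNF genes (16.4%), against 28.6% of the other genes. Both ends stayed under 1 CPM in 73 of 120 ZNF genes (60.8%, against 43.9% of 2237 other genes), and 28 genes reached 1 CPM at the last window alone, 6 at the first alone and 13 at both. ZNF234, the gene nearest the middle by last-window level, ranged from 0.138 to 0.629 CPM there, that is from 3 to 19 reads.

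The highest last windows belonged to ZNF672, ZNF71, ZNF319, ZNF235, ZNF628, ZNF584, ZNF446 and ZNF865, and in each of them the files marked coding sequence. The last window of ZNF672 (UMD v3.1, chr7:43966046-43969045) had 15.1, 17.6 and 20.1 CPM at 5 months and 18.5, 29.6 and 15.0 CPM at 16 months in animals 1, 2 and 3. Its first window, the only other one of the gene, held 0 to 6 reads per library. No library of the first window came near any of the last window.

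ZNF71 had the same form over 6 windows of chromosome 18. Its last window (chr18:64012898-64015897) had 12.5, 15.3 and 20.9 CPM at 5 months and 21.0, 29.4 and 11.7 CPM at 16 months, whereas the first window had 0.152 to 0.563 CPM and the body 1.47 ± 0.357 CPM per window. In ZNF235, the last window had 15.1, 14.8 and 12.5 CPM at 5 months and 15.0, 20.9 and 8.53 CPM at 16 months over a first window of 0.0460 to 0.559 CPM. The 2 ages overlapped in each of these last windows.

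Levels at the last window of ZNF628 were 6.71 to 19.5 CPM, of ZNF584 10.01 to 17.1 CPM and of ZNF446, which encodes a SCAN and KRAB protein, 8.63 to 12.1 CPM. The starts differed among them. ZNF628 and ZNF584 had 0.302 ± 0.141 and 0.664 ± 0.272 CPM in the first window, and ZNF446 had 3.62 ± 0.895 CPM. ZNF319 had 6.79 ± 3.00 CPM at the start and 14.7 ± 4.40 CPM at the end, and ZNF865 had 9.03 ± 2.43 and 9.59 ± 4.67 CPM (SD, n = 6 libraries throughout).

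**Figure D2:**
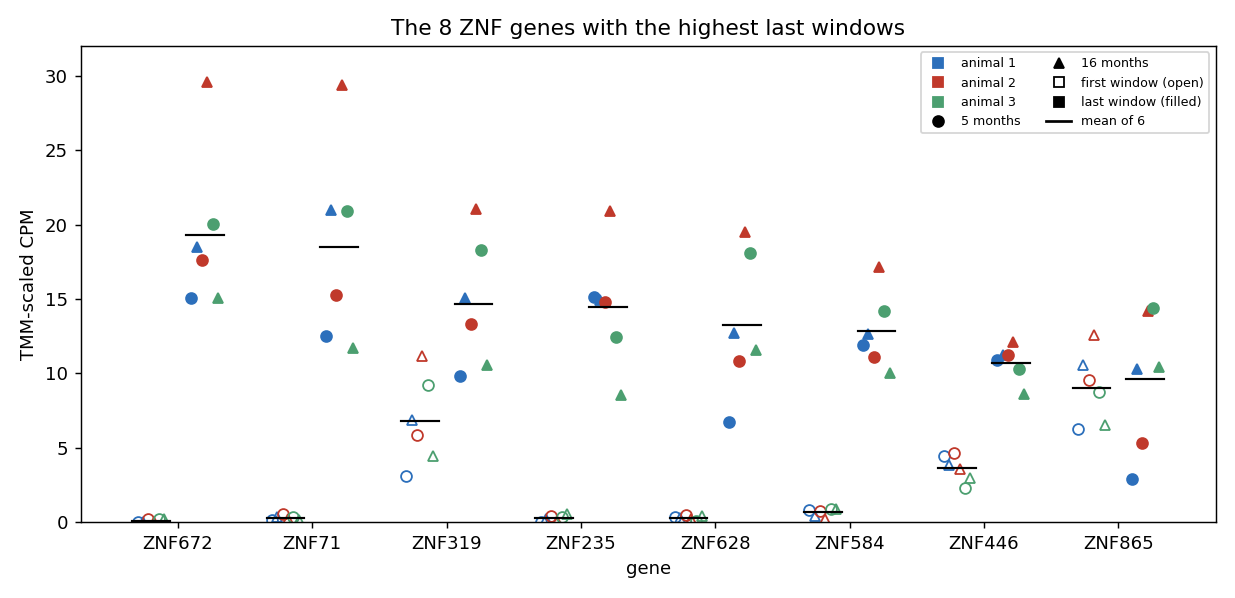
Level (TMM-scaled CPM) of the first window (open) and the last window (filled) in each library for the 8 ZNF genes with the highest last windows; circles are 5 months, triangles 16 months, colours the animals and bars the mean of 6 libraries. In ZNF672, ZNF71, ZNF235, ZNF628 and ZNF584 the first windows lie below 1 CPM and the last windows above 6 CPM, while the points of ZNF865 overlap between the windows.

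The highest first windows were those of ZNF536, ZNF469, ZNF865, ZNF787, ZNF784 and ZNF358. ZNF536, a repressor of neuronal differentiation, had 13.4, 15.8 and 14.5 CPM at 5 months and 16.7, 24.0 and 10.5 CPM at 16 months in its first window (chr18:41114798-41117797). Its last window had 0.0991 to 1.02 CPM in the same libraries, so that its ends were ordered the other way from those of ZNF672. ZNF469, the gene altered in brittle cornea syndrome, had 9.81 ± 3.68 CPM at the start, 7.56 ± 2.29 CPM per window in the body and 2.34 ± 0.773 CPM at the end. First windows had 8.55 ± 2.92 CPM in ZNF787, 7.89 ± 1.62 CPM in ZNF784 and 7.79 ± 3.66 CPM in ZNF358. ZNF784 and ZNF865 are neighbours that end toward each other, with abutting last windows at 1.67 ± 0.777 and 9.59 ± 4.67 CPM.

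Last and first windows were then compared within each library with edgeR's quasi-likelihood test (Benjamini-Hochberg adjustment, FDR below 0.1 and at least 2-fold). Without a filter on low counts, 45 of 120 ZNF genes (37.5%) were higher in the last window, where 41.5% of 20862 genes were, and 33 (27.5%) were higher in the first, where 21.6% were. The shares of the ZNF genes were thus near those of all genes. Only 45 of the 120 genes passed a filter of 1 CPM in 3 libraries at the first or last window, and since this filter keeps genes with a high end, the calls among them, 32 higher in the last window (all genes 58.9%) and 9 higher in the first (all genes 20.5%), carry no weight as a count. Over the 120 genes the median last-minus-first difference was 0.13 ± 0.066 on the log2(CPM + 0.5) scale, against 0.33 ± 0.068 over 2237 other genes of both chromosomes and 0.16 ± 0.052 over other genes elsewhere. The 6 libraries came from 3 animals, and with the libraries of an animal summed the calls were again 32 and 9.

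Among the genes called, the rise from first to last window was largest in ZNF672, at 7.37 ± 0.39 (log2 fold change ± SE, adjusted p = 5.58e-09 by edgeR's quasi-likelihood test). With the libraries of an animal summed, the adjusted p was 1.71e-07 by the same test. ZNF672 passed the filter through its last window and was named for the size of its rise, so this p adds no support. The rise was smaller in the next genes. It was 7.02 ± 0.49 in ZNF821, 5.86 ± 0.27 in ZNF71, 5.65 ± 0.34 in ZNF329 and 5.65 ± 0.39 in ZNF235. The first windows of ZNF821 held 0 to 3 reads and those of ZNF672 0 to 6, so the size of these folds rests on few reads, and without animal 3 they were 7.69 and 8.04. The last window of ZNF821 had 3.96 to 8.52 CPM and that of ZNF329 6.13 to 11.1 CPM.

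The fall from first to last window was largest in ZNF536, at -4.74 ± 0.39 (adjusted p = 1.53e-07 by edgeR's quasi-likelihood test). With the libraries of an animal summed, the adjusted p was 4.78e-07 by the same test. ZNF536 passed the filter through its first window and was named for the size of its fall, so this p adds no support either. The fall was smaller in the next genes. It was -4.20 ± 0.71 in ZNF608, -3.30 ± 0.35 in ZNF574, -2.32 ± 0.30 in ZNF784 and -2.05 ± 0.23 in ZNF469. ZNF608 had 0.297 to 2.73 CPM at the start and 0 to 7 reads at the end. Its fall was -5.39 without animal 2, larger than the -4.47 of ZNF536, and -3.47 without animal 1, so that the order of both genes rests on animal 2. ZNF574 had 4.22 to 7.19 CPM at the start and 0.248 to 0.953 CPM at the end, but its highest window, at 19.5 CPM, was the 12th of 13, next to the last. ZNF865 and ZNF787 were tested and did not pass, at -0.05 ± 0.24 and -0.37 ± 0.24.

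**Figure D3:**
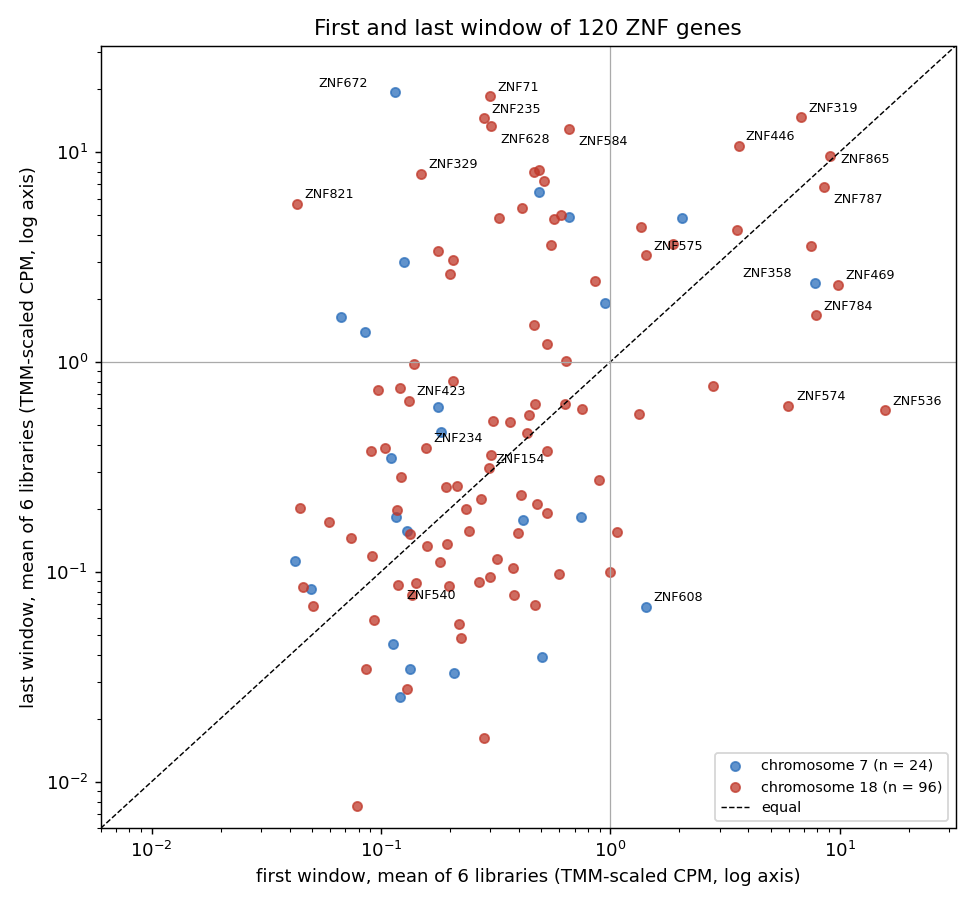
Mean level over 6 libraries (TMM-scaled CPM, log axes) of the first window (horizontal) and the last window (vertical) of the 120 ZNF genes with at least 2 windows; blue is chromosome 7, red chromosome 18, the dashed line marks equal levels and the grey lines 1 CPM. Of these genes, 73 lie in the lower left field with both ends under 1 CPM, 28 in the upper left with ZNF672 and ZNF821 farthest up and left, and 6 in the lower right with ZNF536.

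The end of the label was seldom the peak of the gene. In 66 of 101 ZNF genes of at least 3 windows (65.3%) the highest window lay in the body, in 25 at the last and in 10 at the first. Among 1680 other genes of both chromosomes 66.0% peaked in the body. Windows with the final coding exon of a ZNF gene were at 1 CPM or more in 51 of 152 cases (33.6%), windows with an earlier coding exon in 26.2% of 279 and windows with no coding exon in 20.2% of 623. In the other genes the same classes gave 50.3% of 2408, 42.9% of 7461 and 17.0% of 13088 windows. The differences between ZNF and other genes were not tested.

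Levels went with the length of the label. Of 26 ZNF genes of 2 or 3 windows, 17 (65.4%) had a last window at 1 CPM or more, with a median of 3.78 ± 1.23 CPM. Of 47 genes of 4 to 6 windows 17 did (36.2%), of 26 genes of 7 to 10 windows 3 did (11.5%), and of 21 longer genes 4 did (19.0%). The other genes of both chromosomes went from 46.5% through 51.9% and 48.0% to 38.2% over the same classes, with no such step. The share of first windows at 1 CPM or more was 38.5% in the shortest ZNF class and 12.8% in genes of 4 to 6 windows. It was 0 of 26 in genes of 7 to 10 windows and 14.3% in the longer genes. In the other genes this share also fell with length, from 33.9% through 28.8% and 26.8% to 19.3%. Each window carries a single label, so a gene that overlaps another can have lost windows, and the part of this in the length classes was not tested.

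The 4 genes with the longest labels differed from each other. ZNF423, a transcription factor of preadipocyte commitment, spanned 118 windows of chromosome 18, of which 68 passed the filter of 1 CPM in at least 3 libraries. Its highest window was the 67th from the start and held coding exon 4, at 25.1 CPM, whereas its first window had 0.133 ± 0.0797 CPM. Outside ZNF423, 156 of 936 ZNF windows (16.7%) passed the same filter. In ZNF540 (62 windows) and ZNF154 (59 windows) the bodies had 0.243 ± 0.0940 and 0.387 ± 0.146 CPM per window, and in ZNF608 (37 windows) 0.514 ± 0.145 CPM.

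Neighbouring ZNF genes of chromosome 18 had like levels in some stretches and unlike levels in others. With members at most 250 kb apart joined, 8 groups of at least 4 genes held 78 of the 122 genes, all on chromosome 18. A group of 18 genes from ZNF565 to ZNF850 (chr18:47016198-47916197), had no last window and no first window at 1 CPM, with a median last window of 0.0856 CPM. The 7 other labelled genes of at least 2 windows inside that stretch were also under 1 CPM at the last window. They include ZFP14 and ZFP30, zinc finger genes by symbol, and the rest have LOC symbols. Genes with LOC symbols, here and in the other stretches, were not checked for zinc fingers. Groups of 6 genes from ZNF175 to ZNF350 and 5 genes from ZNF836 to ZNF677 had no last window at 1 CPM either, although 4 of the 9 other genes of the former stretch did.

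By contrast, in a group of 7 genes within 0.135 Mb from ZNF581 to ZNF628 (chr18:62347498-62482497), each of the 5 genes of at least 2 windows was at 1 CPM or more in the last window, from 1.67 CPM in ZNF784 to 13.2 CPM in ZNF628. Of the 5 other genes there, 4 were too. The group of 20 genes from ZNF805 to ZNF446 (chr18:64603898-65911897) was split along its length. The last windows of ZNF135, ZNF329, ZNF274, ZNF8, ZNF584, ZNF132 and ZNF446, at one end of it, had 1.51 to 12.8 CPM, and among the 13 genes before them only ZNF264 and ZNF772 reached 1 CPM. ZNF274, which in human cells brings SETDB1 to the 3' ends of other ZNF genes, had 7.25 CPM. The genes of this stretch outside the naming rule were chosen after their values were seen.

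**Figure D4:**
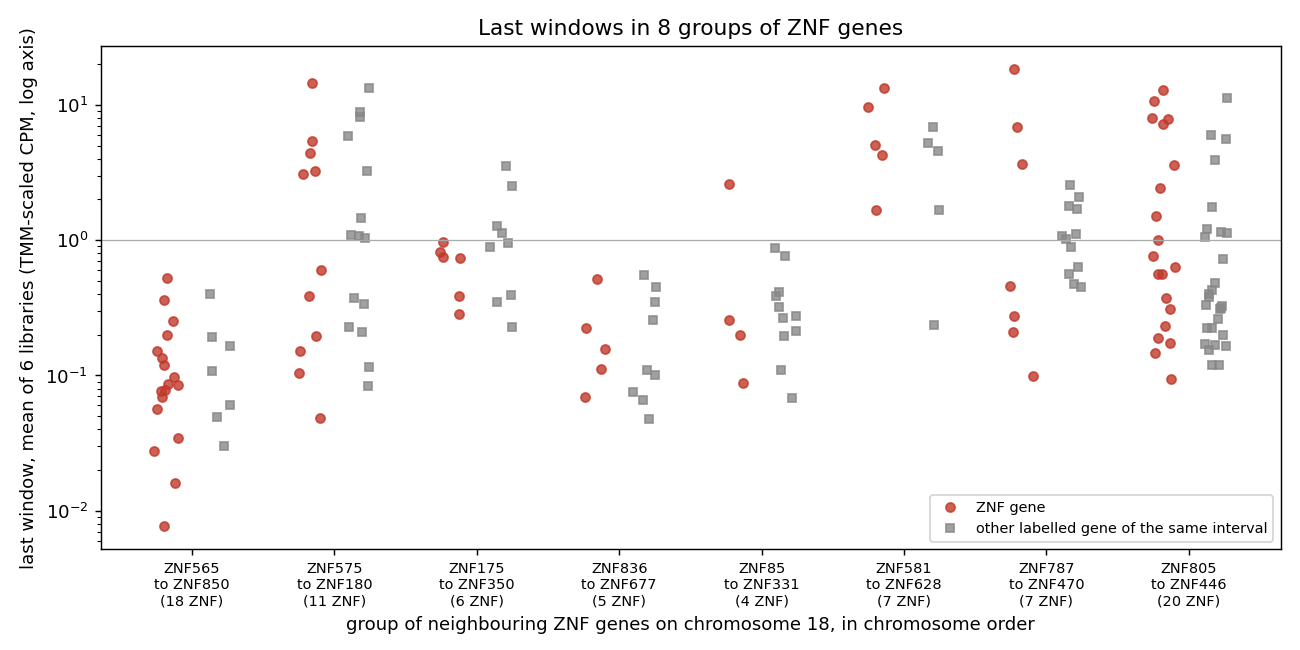
Mean last-window level over 6 libraries (TMM-scaled CPM, log axis) in the 8 groups of neighbouring ZNF genes of chromosome 18, in chromosome order; circles are ZNF genes, squares other labelled genes of the same interval with at least 2 windows, and the grey line marks 1 CPM. The group from ZNF565 to ZNF850 lies wholly below the line and the group from ZNF581 to ZNF628 wholly above it for ZNF genes.

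By chromosome, ZNF bodies were at 1 CPM or more in 1 of 21 genes on chromosome 7 and in 23 of 80 on chromosome 18 (28.8%). Among the other genes, bodies reached this level in 43.6% on chromosome 7 and 53.9% on chromosome 18. ZNF last windows were at 1 CPM or more in 9 of 24 (37.5%) and 32 of 96 (33.3%), against 42.7% and 50.2% of the other genes. Zinc finger genes of the same chromosomes with other symbols (ZSCAN, ZFP, ZKSCAN, ZIK, ZIM, ZBTB or PEG3) had a median last window of 0.202 CPM, with 4 of 14 at 1 CPM or more.

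The ages were compared within animals. Of 224 ZNF windows tested with the animal as a block, 1 was called (edgeR's quasi-likelihood test, FDR below 0.1 and at least 2-fold), where 0.185% of all 104658 windows were. By the same test 20 of the 224 had an unadjusted p below 0.05, and 7429 of all 104658 (7.1%) did. The window called lies inside ZNF423 and holds no coding exon (chr18:18215798-18218797, the 59th window of the gene). It had 6.21, 2.62 and 3.72 CPM at 5 months and 1.48, 1.73 and 1.57 CPM at 16 months in animals 1, 2 and 3, from 31 to 135 reads. Every 5-month value lay above every 16-month value. The log2 fold change was 1.36 ± 0.25 (SE), higher at 5 months, with an adjusted p = 0.0014 by edgeR's quasi-likelihood test. The call was lost with DESeq2, without the block and without animal 1, where the log2 fold change was 1.32, 1.39 and 0.91.

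Starts, bodies and 3' ends of ZNF genes gave no call by age. With edgeR's quasi-likelihood test, 0 of 19 first windows passed (0.0174% of 5758 genes), and DESeq2 called 0. By edgeR 1 of the 19 had an unadjusted p below 0.05, and 501 of all 5758 did. Of 65 bodies, 0 were called (0% of 13201 genes) and DESeq2 called 0. An unadjusted p below 0.05 by edgeR was seen in 0 of the 65 and in only 32 of all 13201. Bodies were not simulated, so the 0 calls do not show that bodies stayed the same. Of 40 last windows, 0 were called (0.175% of 7448 genes) and DESeq2 called 0. By edgeR 7 of the 40 had an unadjusted p below 0.05, and 579 of all 7448 did. In simulated data the test recovered 54.5% of last windows changed 2-fold and 100% of those changed 4-fold. A call needs an estimated change of at least 2-fold, so a true 2-fold change lies on the threshold and can be missed at any depth. Leaving out animal 3 gave 2 calls among the 19 ZNF starts (2.76% of all 5758 starts) and 3 among the 40 last windows (1.62% of all 7448). Leaving out animal 2 gave 2 among the 65 bodies, or 3.08%, below the 7.33% of all 13201 bodies. All of these ZNF calls were higher at 16 months. So were most calls over all genes in the same fits, at 106 of 159 starts, 76 of 121 last windows and 958 of 968 bodies. The age difference of last minus first window, added after the data were seen, passed edgeR's quasi-likelihood test in 0 of 45 ZNF genes and 0% of 9044 genes, and 0 and 193 of them had an unadjusted p below 0.05.

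The uncalled windows with the lowest p were the last windows of ZNF865, ZNF787 and ZNF575. That of ZNF865 (chr18:62377498-62380497) had 2.90, 5.30 and 14.4 CPM at 5 months and 10.3, 14.2 and 10.4 CPM at 16 months in animals 1, 2 and 3 (log2 fold change -0.90 ± 0.25, adjusted p = 0.102 by edgeR's quasi-likelihood test). That of ZNF787 had 3.68, 4.11 and 7.62 CPM at 5 months and 8.95, 11.8 and 4.93 CPM at 16 months (-0.75 ± 0.23). That of ZNF575 had 1.84, 2.65 and 2.82 CPM at 5 months and 4.53, 5.50 and 2.03 CPM at 16 months (-0.68 ± 0.24). In each of the 3 windows animals 1 and 2 were higher at 16 months and animal 3 at 5 months, and the ages overlapped. Without animal 3 these windows were called, as part of 7 ZNF windows of 224, 5 of them higher at 16 months. In that fit calls rose over the whole table, from 0.185% to 1.2% of all 104658 windows, and 563 of these 1255 calls were higher at 16 months.

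**Figure D5:**
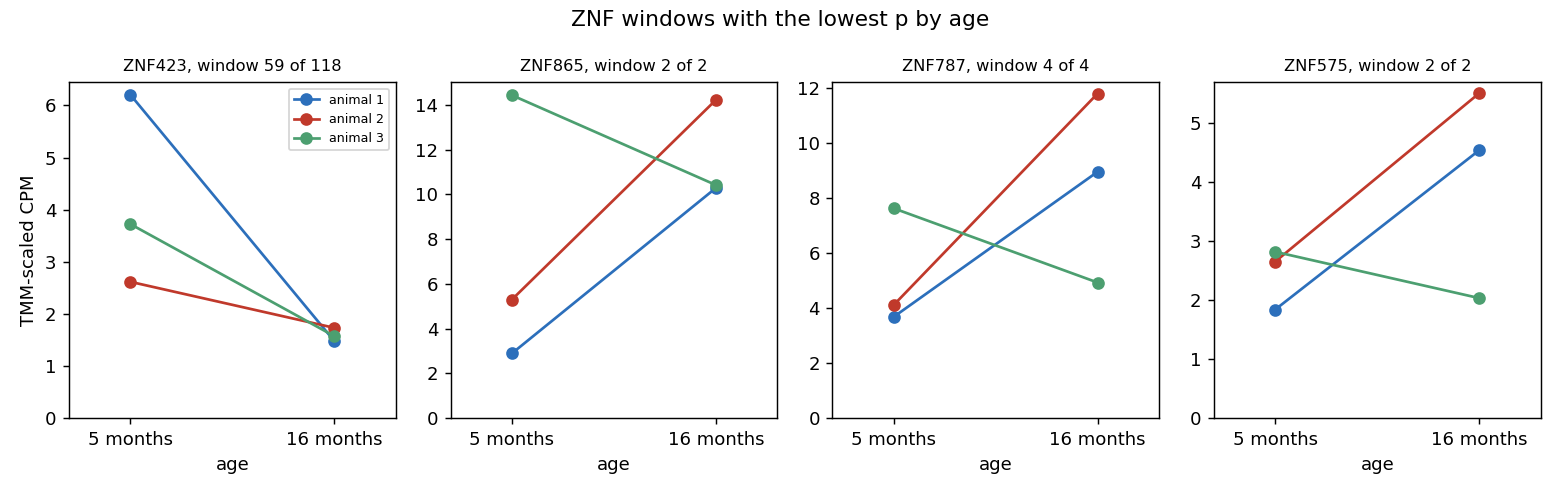
Level (TMM-scaled CPM) at 5 and 16 months in each animal for the 4 ZNF windows with the lowest p by age; lines join the libraries of an animal and each panel has its own axis from 0. All 3 animals fall from 5 to 16 months in the ZNF423 window, whereas in ZNF865, ZNF787 and ZNF575 animals 1 and 2 rise and animal 3 falls.

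The direction by animal depended on which last windows were taken. Over all 120 ZNF last windows, 85 were higher at 16 months in animal 1, 36 in animal 2 and 73 in animal 3, with a median 5-minus-16-month difference of -0.19, 0.27 and -0.10 on the log2(CPM + 0.5) scale. The same medians over 2237 other genes of both chromosomes were -0.086, 0.18 and -0.037. Among the 40 ZNF last windows that passed the filter, 27 were higher at 16 months in animal 1, 28 in animal 2 and 15 in animal 3, so that animals 2 and 3 had the opposite order there. In these 40 the median difference was -0.23, -0.31 and 0.21, against -0.042, -0.045 and 0.15 over 984 other genes of both chromosomes. The 16-month library of animal 2 held the highest value of the 6 libraries in 19 of the 40 (47.5%), against 34.6% of the other genes. Its part in the age differences was not tested. Scaled by library size only, the ZNF medians were -0.084, -0.31 and 0.11 and those of the other 984 genes 0.12, -0.042 and 0.060, with 22, 28 and 17 of the 40 ZNF windows higher at 16 months, so that the sign over other genes turned in animal 1.

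The animals were also compared with each other, a test added after the data were seen. With age as covariate, 11 of 40 ZNF last windows tested differed among animals (edgeR's quasi-likelihood test, FDR below 0.1, at least 2-fold between the highest and lowest animal), where 14.1% of 7448 genes did, and 4 of 19 first windows did, where 17.2% of 5758 genes did. Animal 3 was highest in 10 of the 11, and in 8 of them with the levels scaled by library size only, where ZNF692 was highest in animal 1 and ZNF865 in animal 2. Of all genes called at the last window, 73.3% were highest in animal 3. Without animal 3 the same edgeR test called 0 of 40 ZNF last windows and 16 of all 7448 genes. An unadjusted p below 0.05 by this test was seen in 9 of the 40 and in 1192 of the 7448. Among the 19 first windows the test called 0 without animal 2, where 7.64% of all 5758 starts were called. It called 1 without animal 3, where 1.06% of all starts were. Without animal 2, 7 of the 19 and 1166 of the 5758 had an unadjusted p below 0.05 by this test.

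ZNF331, an imprinted gene in humans, had 1.195 and 1.55 CPM in animal 1, 1.43 and 0.991 CPM in animal 2, and 5.07 and 5.49 CPM in animal 3 at 5 and 16 months in its last window (chr18:61019298-61022297). Both libraries of animal 3 stood above the 4 others. The same was so of ZNF135, at 8.27 and 5.38 CPM in animal 3 against 1.39 to 2.39 CPM. It was also so of ZNF264, at 4.51 and 4.72 CPM in animal 3 against 0.892 to 1.76 CPM, and of ZNF227, at 9.49 and 7.92 CPM against 2.42 to 5.01 CPM. These genes were chosen after their values were seen, and animal 3 also had the lowest TMM factors, whose part was not tested.

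Of 15 genes for partners of KRAB zinc finger silencing, 14 were labelled in the files. By age, edgeR's quasi-likelihood test called 0 of their 40 windows tested, and 5 had an unadjusted p below 0.05. Of all windows, 0.185% were called and 7.1% had such a p. The last window was at 1 CPM or more in 6 of the 14 and the first in 1. The same shares were 46.3% and 28.6% over other genes of chromosomes 7 and 18, and 35.4% and 23.3% over other genes elsewhere. Each gene given with values below is among these 6. Partners outside the 6 had last windows from 0.0260 CPM in ATRX to 0.552 CPM in SETDB1. DNMT1, the maintenance methyltransferase, had 0.182 ± 0.1002 CPM at the start and 12.1 ± 3.79 CPM at the end, and TRIM28 had 0.481 ± 0.320 and 3.81 ± 1.17 CPM. UHRF1, which guides DNMT1, had 0.529 ± 0.131 and 3.20 ± 0.951 CPM. DNMT3A, a de novo methyltransferase, was the 1 with a first window above 1 CPM, at 5.23 ± 0.781 CPM over a last window of 2.33 ± 0.979 CPM.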

How the data were processed

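Per the labels and the study's methods, fibroblast DNA was enriched by methyl-binding proteins and sequenced. The authors filtered reads, aligned them to UMD v3.1 with NextGENe 2.3.4 and deposited unnormalized read counts of sequential 3 kb windows. The highest coverage depth deposited beside each count, an unscaled signal, served only to find stacked reads (above 0.5 of the count, where a library had at least 10 reads). How PCR duplicates and multiply mapping reads were treated was not given in the sources, and related zinc finger genes could share reads.

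Windows of a symbol more than 100 windows apart were split into separate genes, and first and last windows follow the strand in the files. Of 120 symbols, 99 were current RefSeq symbols and 2 synonyms. No sequence is shown, since no genome of this build was used.

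Counts were fitted over the whole table with edgeR 4.0.16 (DESeq2 1.42.0 as an alternative; R 4.3.3) and summarised in Python with numpy, pandas and matplotlib. Features reaching 1 CPM in 3 or more of the 6 libraries entered edgeR's quasi-likelihood test, with Benjamini-Hochberg adjustment. This filter used library totals over windows, without the TMM factors of the reported levels. Animal was the block for age and library the block for position. Calls needed an FDR below 0.1 and a 2-fold change. Positive age differences are higher at 5 months. SE is the log2 fold change over the root of F. Bodies were summed for tests and averaged per window for levels, with a pseudocount of 0.5 on the log scale.

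The pairing comes from the animals. Deviations of same-animal libraries from their age means correlated at 0.290, 0.544 and 0.710 in animals 1, 2 and 3. On simulated data with 200 features changed 2-fold, 66 of 200 windows were recovered and 105 of 200 gene starts. With 4-fold changes all 200 were recovered in each comparison simulated, and with no change in any feature there were 0 calls. Beside the changed features, 1 to 12 unchanged ones were called at 2-fold and 0 to 13 at 4-fold, depending on the comparison. The simulated dispersion (spread of counts beyond counting error) was near the 0.0382 to 0.0424 of the age fits of windows, starts and last windows. It was below the 0.105 of the position fit, so recovery of position changes can be overstated.

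The genes and lists were chosen with earlier results of these data known. Named genes are those called by age, the 3 uncalled windows of lowest p, the 8 highest last and 6 highest first windows, the 5 largest rises and 5 largest falls between them, the 4 longest labels and the middle gene. Alternatives were other tests, scalings, filters, thresholds, pseudocounts, summaries and comparison genes, no block, and leaving out each animal. P-values over cultures, 1 per animal and age, measure only the spread between these libraries.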

Additional observations from a re-analysis of the deposited data

How the results depend on the processing

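The count of ZNF windows called by age (1) was 0 with DESeq2 and 0 without the replicate block, and 0 to 7 with an animal left out. Leaving out an animal gave 0 to 2 ZNF calls for gene starts, 0 to 2 for bodies and 0 to 3 for last windows, where 0 were called with all animals. Over all bodies, leaving out animal 2 turned 0 calls into 968, and over all windows 194 calls became 0 without the block, 15 with DESeq2, 59 without a filter, and 15 to 1255 with an animal left out. Over all gene starts 1 call became 34 with the likelihood-ratio test and 23 with library size only. For last against first window, the 41 ZNF calls became 78 without the CPM filter and 20 of 21 tested without windows beside another label, where fewer genes were tested, and 39 to 42 with an animal left out. Without the replicate block they were 41. For differences among animals, the 4 starts became 13 with library size only, 7 without the filter and 0 to 5 with an animal left out, and the 11 last windows became 17 with library size only and 0 to 10.

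The level differences of -0.13 (first), -0.72 (body) and -0.52 (last) became -0.080 and -0.49 (first and body) with a pseudocount of 1, and -0.27, -1.18 and -0.87 with 0.1. With the mean over genes the first and last differences were -0.17 and -0.28. On chromosome 18 alone the first and body differences were -0.25 and -0.89, and on chromosome 7 alone the body difference was -0.59. Against other genes of the same number of windows the body difference was -0.94. With the window upstream averaged in, the first difference was -0.19, and without stacked windows the last difference was -0.74. Against genes of all other chromosomes they were 0.033, -0.13 and -0.022. With an animal left out they ran from -0.14 to -0.12, -0.76 to -0.68 and -0.62 to -0.47. Of 137 alternatives for the genes named, 131 kept direction and side of the threshold and 0 reversed. Most of these were for genes named for the size of their rise or fall between windows, so the count adds no support. The ZNF423 window, the only ZNF window called by age, lost its call with DESeq2, without the block and without animal 1. The causes were not tested. Low counts limit the genes under 1 CPM, how PCR copies were treated is unknown, and CpG density, which sets MIRA signal together with methylation, was not tested without a matching genome.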
